A study of Mus musculus with 6 samples.

Results

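Genes that mark blood monocytes and their marrow precursors were followed here in mouse bone marrow RNA: Ly6c1, Ly6c2, Ccr2, Cx3cr1, F13a1, Fn1, Ms4a6c, Lyz2, Spn and Ly86. They were chosen by name, as genes of classical and patrolling monocytes, and are 10 of the 49315 genes in the deposited count table. Each of the 10 was found in the table by its Ensembl identifier, and each passed the filter on low counts. The libraries came from 3 KO samples (replicates 2, 3 and 4), labelled miR-181a2b2-/-, and from 3 WT samples (replicates 1, 3 and 4), labelled miR-181a2b2flox/flox (flox), which carry the floxed locus. All 6 samples had the HFSC diet and hindlimb ischemia, the surgical interruption of blood flow to a hindlimb. The sources used here do not give age, sex, or whether a Cre line drove the deletion. They also do not say whether each library is a separate animal, so the p-values here reflect spread among these libraries, which may be technical.

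Monocytes arise in the marrow from progenitors shared with neutrophils. Classical mouse monocytes carry much Ly6C on their surface and leave the marrow through CCR2, the receptor of the chemokine CCL2. Patrolling monocytes carry little Ly6C, depend on CX3CR1 and the transcription factor NR4A1, and carry more CD43, the product of Spn. Both miR-181a and miR-181b repress messenger RNAs that carry matching sites in the 3' untranslated region, and the series title links them to CXCR4 and monocytosis.

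Total counts lay between 33861440 and 40359093 per library, and scaling factors between 0.948 and 1.04. On the first principal component, with 40.1% of the variance, KO libraries stood at -8.15, -11.3 and -57.9 and WT libraries at 22.7, 26.6 and 28.1. KO replicate 4 lay furthest out. Libraries with the X-inactivation transcript Xist above 1 CPM (counts scaled to a common library size) were 1 of 3 KO and 2 of 3 WT. The labels name bone marrow as the source but white adipose tissue in the extraction text. The 14 neutrophil markers summed to between 71821 and 86963 CPM in KO and between 48332 and 61581 CPM in WT, whereas the 7 adipocyte markers summed to between 28.9 and 45.3 CPM in KO and between 20.9 and 32.6 CPM in WT. Fewer cells of a type and less RNA per cell cannot be told apart in such bulk samples.

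The mature microRNAs of the deleted locus on chromosome 2 are shown first, because they share the seed (bases 2 to 8, in capitals) that decides which messages they match. The sequences are those of RefSeq (GRCm38.p6), on the plus strand at chr2:38852741-38852763 and chr2:38853845-38853868.
mmu-miR-181a-5p: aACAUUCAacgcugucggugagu
mmu-miR-181b-5p: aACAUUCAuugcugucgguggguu

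Of the 10 genes, 2 had a seed match of 7 or 8 bases in their longest annotated 3' untranslated region (GENCODE M21, GRCm38, sense strand only). The letters searched were TGAATGTA (8mer) and TGAATGT or GAATGTA (7mer), and the 6mer GAATGT lies within each of these. Spn held an 8mer, and Ms4a6c a 7mer. Ly6c2, Cx3cr1 and F13a1 held only a 6mer, and Ly6c1, Ccr2, Fn1, Lyz2 and Ly86 held none. Among the 17658 genes with counts and such an annotated region, 5.75% held an 8mer and 22.9% an 8mer or a 7mer. A match is a description of the letters and not evidence of regulation. Each match is printed with its flanks, the matching bases in capitals. The Spn match lies on the minus strand at chr7:127134212-127134239 and the Ms4a6c match on the plus strand at chr19:11481475-11481501.
Spn: tccccatgaaTGAATGTAtgtatgtatg
Ms4a6c: cagtataagtTGAATGTgtgtattact

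Ly6c1 and Ly6c2 need a caution before their values. They lie on the minus strand of chromosome 15 (Ly6c1 at 75044018 to 75048830, Ly6c2 at 75108158 to 75111970), and their closest annotated coding sequences differed at 9 of 396 aligned bases, an identity of 97.7%. Of these differences 6 fell within the first 90 coding bases, which are shown because a read must cover such a base to be told apart. Capitals mark the bases that differ.
Ly6c2: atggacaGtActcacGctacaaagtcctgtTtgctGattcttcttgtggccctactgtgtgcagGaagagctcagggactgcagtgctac
Ly6c1: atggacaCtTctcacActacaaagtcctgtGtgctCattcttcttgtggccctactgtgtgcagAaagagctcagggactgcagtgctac

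Over all annotated transcripts, 32.8% of the distinct 50-base stretches of Ly6c1 and 14.4% of those of Ly6c2 also occurred in another gene, and each was the gene that shared most with the other. For 100-base stretches the shares were 10.1% and 5.81%. Shares over the longest coding transcripts alone (844 bases for Ly6c1 and 822 bases for Ly6c2) were not computed and may differ. Of the other members, Lyz2 shared 15.4% of its 50-base stretches, with Lyz1, and Ms4a6c 10.5%, most often with Ms4a6b. Fn1, Cx3cr1, F13a1, Spn and Ly86 each shared below 1%. The sources used here give neither the read length nor the treatment of reads that match several places, so the counts of Ly6c1 above all are uncertain.

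Levels between genes were compared per kilobase of annotated exon. Lyz2, which encodes the lysozyme of phagocytes, was the most abundant of the 10, at 7212 ± 588 CPM per kb in KO and 4959 ± 840 CPM per kb in WT (SD, n = 3 each). Ly6c2 came next, at 349 ± 27.8 CPM per kb in KO and 246 ± 18.1 CPM per kb in WT. Fn1, F13a1, Spn, Ccr2 and Ms4a6c formed a middle group with means between 50.7 and 91.5 CPM per kb in KO and between 46.8 and 96.5 CPM per kb in WT. Within it the ranges of neighbours overlapped for Spn and Fn1, Fn1 and Ms4a6c, and Ms4a6c and Ccr2 in KO, and for Fn1 and F13a1 and for Ccr2 and Ms4a6c in WT. Ly86 followed at 13.8 ± 0.947 CPM per kb in KO and 11.4 ± 0.892 CPM per kb in WT, and Cx3cr1 at 4.79 ± 1.53 CPM per kb in KO and 7.84 ± 2.03 CPM per kb in WT. Ly6c1 was lowest, at 1.73 ± 0.485 CPM per kb in KO and 0.778 ± 0.0553 CPM per kb in WT. The annotated exons of Ly6c2 together span 2740 bases, more than its longest coding transcript. Per kilobase of its longest coding transcript (822 bases) its level was 1162 ± 92.7 CPM in KO and 821 ± 60.4 CPM in WT, again second. The order below it depended on the length used. On the second measure Ly86 had 44.1 CPM in KO and 36.6 CPM in WT, closer to Ms4a6c (57.8 and 52.1 CPM). F13a1 then stood above Fn1 in WT, at 147 against 136 CPM.

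**Figure D1:**
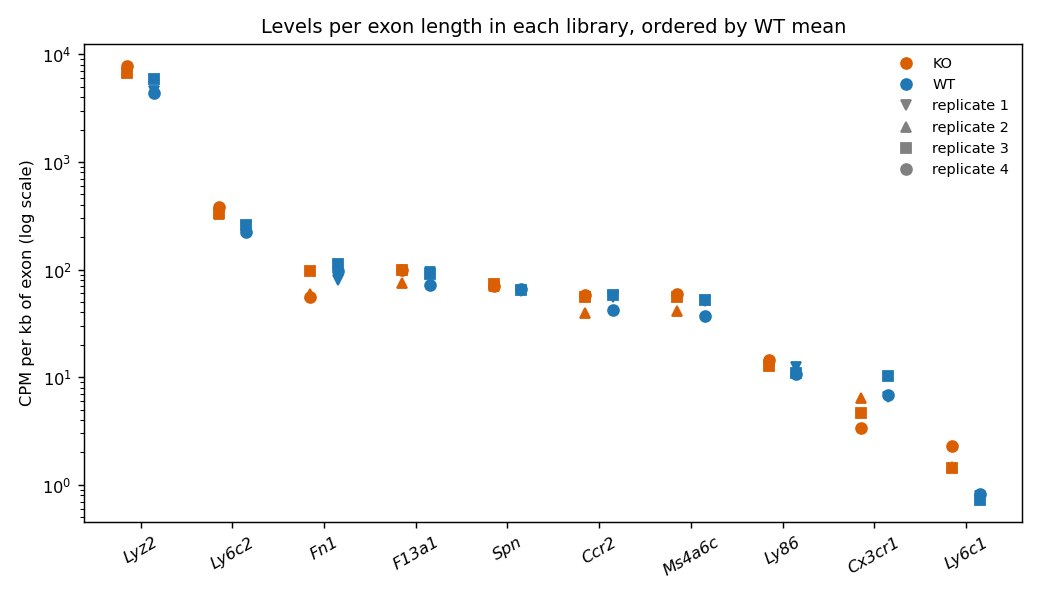
Levels of the 10 genes in CPM per kb of annotated exon (log scale), with genes ordered by their WT mean, KO libraries in orange left of WT libraries in blue, and the marker shape giving the replicate. Lyz2 stands far above the rest, 5 genes lie close together, and Ly6c1 is lowest in both groups.

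In the comparison of KO with WT marrow, which asks whether monocyte gene expression differed where the microRNA locus was deleted, 2 of the 10 genes passed the test, and both rose: Ly6c2 and Ly6c1 (edgeR quasi-likelihood test, Benjamini-Hochberg adjusted p below 0.05 over 16956 genes). Over all genes tested 0.938% were called higher, 1.52% lower and 2.46% in either direction. None of the 10 fell in this test. At an unadjusted p under 0.05, 4 were higher and 1 lower, where 1980 of the 16956 genes tested were higher and 2077 lower. In DESeq2 3 higher and 1 lower passed, against 834 higher and 743 lower of 30403 genes. In limma 3 higher and 0 lower passed, against 495 higher and 562 lower of 16956 genes. The KO and WT values did not overlap for 6 of the 10 (Ly6c2, Ly6c1, Lyz2, Ly86 and Spn, higher in KO, and Cx3cr1, lower in KO), against 29.1% of all genes tested. The median log2 fold change (KO minus WT) of the 10 was 0.14, against -0.01 over all genes tested. It moved to 0.08 without WT replicate 4 and to 0.23 without KO replicate 2.

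**Figure D2:**
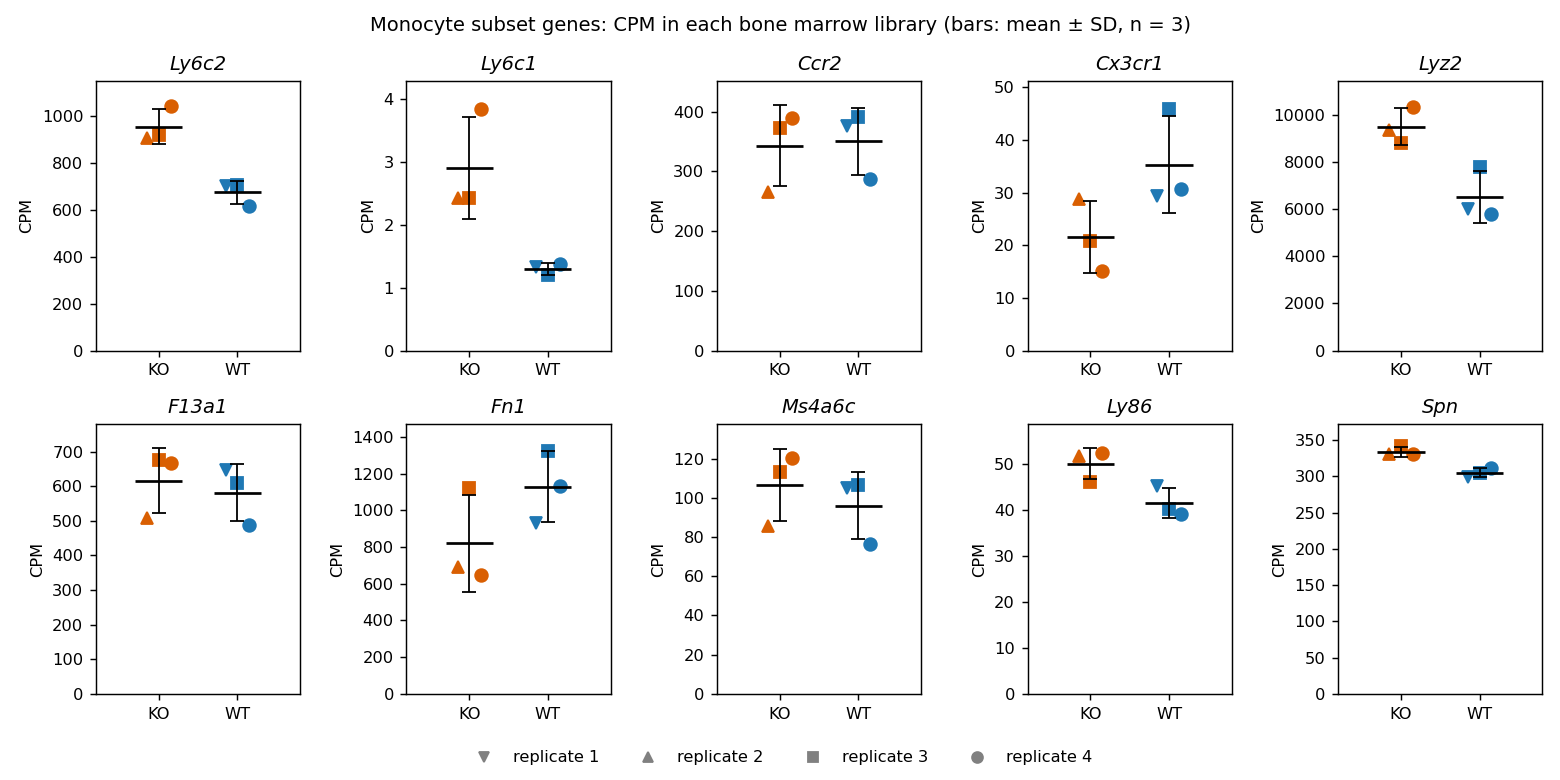
CPM of each gene in every library, KO in orange left of WT in blue, with the mean and SD of 3 libraries as bars and the marker shape giving the replicate. Ly6c2, Ly6c1, Lyz2, Ly86 and Spn are higher in every KO library than in any WT library, Cx3cr1 is lower in every KO library, and Ccr2, F13a1, Fn1 and Ms4a6c overlap.

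Ly6c2, the main Ly6C gene of classical monocytes, rose in KO marrow. It had 904, 918 and 1043 CPM in KO replicates 2, 3 and 4, against 701, 706 and 617 CPM in WT replicates 1, 3 and 4. The lowest KO library thus stood above the highest WT library, and the spread within each group was small. Its log2 fold change was 0.50 ± 0.11 (SE, edgeR adjusted p = 0.0474), which is 1.42-fold with a 95% interval from 1.20 to 1.67. The call stood close to the threshold. It held without KO replicate 3 (adjusted p = 0.0473) and was lost without any other library, with a largest adjusted p of 0.196, while the log2 fold change stayed between 0.44 and 0.54 in these 6 fits.

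Ly6c1, whose protein is found on endothelial cells and some lymphocytes as well as on myeloid cells, also rose. It had 82, 87 and 144 counts in the KO libraries, against 46, 49 and 58 counts in the WT libraries, or 2.43, 2.43 and 3.84 CPM in KO against 1.33, 1.20 and 1.38 CPM in WT. KO replicate 4 was the highest, and the groups did not overlap. The log2 fold change was 1.15 ± 0.25 (SE, edgeR adjusted p = 0.0474), or 2.22-fold with a 95% interval from 1.52 to 3.26. The call was lost without KO replicate 4 or any of the WT libraries, with log2 fold changes between 0.90 and 1.28 over the 6 fits. Ly6c1 counts were a small share of Ly6c2 counts in every library, at 0.269%, 0.265% and 0.368% in KO and 0.190%, 0.170% and 0.224% in WT. That share was higher in each KO library than in any WT library, with an exact two-sided permutation p of 0.1, the smallest that 3 against 3 libraries can give (0.2 after adjustment over 4 ratios). With the counts of both paralogs summed, the log2 fold change was 0.50 (edgeR adjusted p = 0.0476), so the summed value was that of Ly6c2.

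Markers of other cells with Ly6C were measured beside these values. Of the 14 neutrophil markers 3 rose, S100a8 and Camp, a calcium-binding protein gene and an antimicrobial peptide gene, and Elane, neutrophil elastase, and 0 fell. S100a8 averaged 16062 ± 2655 CPM in KO and 9544 ± 1179 CPM in WT (SD, n = 3 each). Their median log2 fold change was 0.52, close in size to that of Ly6c2, and their summed level, given above, did not overlap between the groups. The number that rose was 0 without KO replicate 4, WT replicate 1 or WT replicate 4, while DESeq2 called 12. Of 9 endothelial markers 0 passed in edgeR and 0 in DESeq2 and limma. At an unadjusted p under 0.05, Cdh5 was higher and Pecam1 lower, and the markers summed to between 65.2 and 82.6 CPM in KO and between 73.3 and 94.5 CPM in WT. Of 10 T and NK cell markers 0 passed in edgeR, and 1, Nkg7, in DESeq2 and limma and at an unadjusted edgeR p under 0.05. Cd3e had a log2 fold change of -0.35. The sums lay between 132 and 154 CPM in KO and between 105 and 129 CPM in WT. Nkg7 alone averaged 85.4 CPM in KO and 62.6 CPM in WT, the largest part of these sums. Of the 10 markers 4 had positive and 6 negative log2 fold changes, with a median of -0.04. Of 6 plasma cell markers Xbp1 rose, a call lost without KO replicate 4 or any of the WT libraries (edgeR adjusted p up to 0.143). Their sums lay between 542 and 622 CPM in KO and between 290 and 416 CPM in WT. Most of these sums came from Jchain (352 CPM in KO and 189 CPM in WT, means) and Xbp1 (214 and 146 CPM). All 6 had positive log2 fold changes, the lowest 0.02, with a median of 0.18. None of these markers was at 0 in all libraries. The part of any of these cells in the Ly6c2 and Ly6c1 values was not tested.

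**Figure D3:**
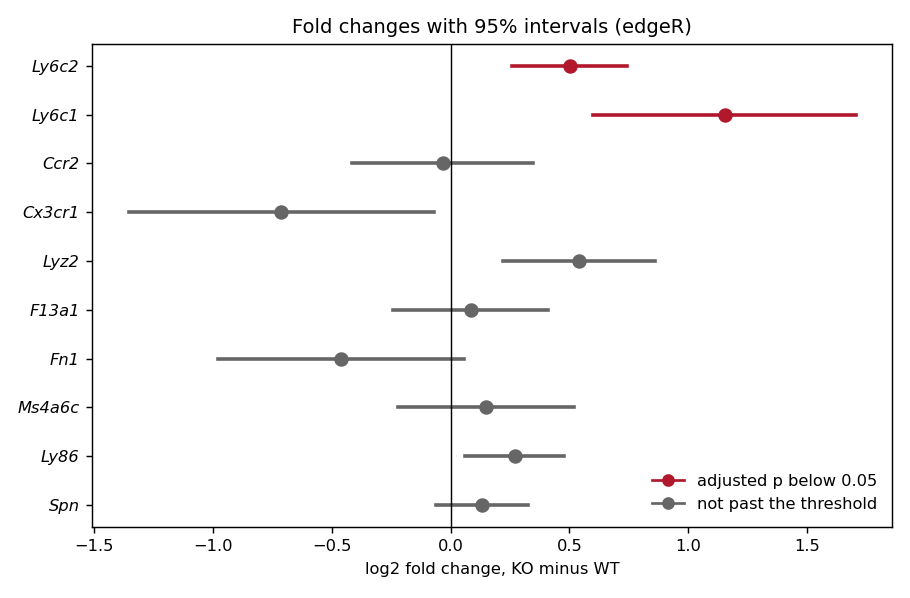
Log2 fold change (KO minus WT) of each gene as a point with its 95% interval from edgeR as a line, in red where the adjusted p was below 0.05. Ly6c2 and Ly6c1 are in red, the intervals of Lyz2 and Ly86 lie above 0 and that of Cx3cr1 below 0 without passing adjustment, and the other intervals include 0.

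The chemokine receptors Ccr2 and Cx3cr1 did not pass the test. Ccr2, on chromosome 9 at 124101950 to 124113557, had 265, 373 and 390 CPM in KO replicates 2, 3 and 4, against 375, 390 and 286 CPM in WT replicates 1, 3 and 4. The groups covered nearly the same range, with KO replicate 2 and WT replicate 4 the lowest of their groups. Its log2 fold change was -0.03 ± 0.17 (SE, edgeR adjusted p = 0.927), with a 95% interval from 0.751 to 1.27 times the WT level. The interval includes changes of Ccr2 in either direction within those limits, and the size of change that could be detected was not computed.

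Cx3cr1, the receptor of the membrane-bound chemokine CX3CL1, had 28.9, 20.8 and 15.1 CPM in KO replicates 2, 3 and 4, against 29.4, 45.9 and 30.8 CPM in WT replicates 1, 3 and 4. Every KO library was below every WT library, but KO replicate 2 and WT replicate 1 were nearly equal. The edgeR log2 fold change, -0.71 ± 0.27 (SE, 95% interval -1.35 to -0.07), missed the threshold over all genes (adjusted p = 0.173). DESeq2 gave an adjusted p of 0.0234 for the same direction. Leaving out a library moved the log2 fold change between -0.97 (without KO replicate 2) and -0.48 (without WT replicate 3), and edgeR did not call it in any of these fits. The annotated span of Cx3cr1 (chromosome 9, 119901616 to 120069879) overlaps Wdr48, Csrnp1 and other expressed genes, and the sources used here do not name the strand setting of the counting. Of 8 dendritic cell markers, measured because such cells also use Cx3cr1, 0 passed in edgeR and 0 in limma, 1 was lower in DESeq2, and Zbtb46 and Tcf4 were lower at an unadjusted edgeR p under 0.05. Their sums lay between 161 and 197 CPM in KO and between 167 and 222 CPM in WT, with none at 0 throughout.

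Ratios within a library do not depend on the scaling between libraries. The ratio of Ly6c2 to Ccr2 counts was 3.41, 2.46 and 2.67 in KO and 1.87, 1.81 and 2.16 in WT, so that each KO library exceeded each WT library. On the log2 scale the ratio differed by 0.54 (KO minus WT, exact permutation p = 0.1, adjusted p = 0.2). The ratio of Cx3cr1 to Ccr2 overlapped between the groups, with a log2 difference of -0.69 (exact permutation p = 0.3, adjusted p = 0.4). It was -1.10 without KO replicate 2 and -0.35 without KO replicate 4. The ratio of Ly6c2 to Lyz2 differed by -0.05 (exact permutation p = 0.7, adjusted p = 0.7). No such test can go below 0.1 with 3 against 3 libraries.

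Lyz2, the lysozyme gene shared by monocytes, macrophages and neutrophils, was higher in every KO library but did not pass. It had 9338, 8805 and 10329 CPM in KO replicates 2, 3 and 4, against 5983, 7797 and 5796 CPM in WT replicates 1, 3 and 4. The groups did not overlap, and WT replicate 3 stood closest to the KO libraries. Its log2 fold change of 0.54 ± 0.14 (SE) had a 95% interval from 1.16 to 1.82 times the WT level and did not pass edgeR (adjusted p = 0.0757). DESeq2 (adjusted p = 0.00268) and limma (adjusted p = 0.0377) called it higher, and edgeR did so without WT replicate 3 (adjusted p = 0.0456). Lyz2 alone took 0.929%, 0.866% and 0.979% of all counts in the KO libraries and 0.609%, 0.794% and 0.603% in the WT libraries. Lyz1, its paralog with 95.1% identical coding bases, had 7.63 ± 1.02 CPM in KO and 5.94 ± 0.490 CPM in WT (SD, n = 3 each), and summing both genes left the log2 fold change of Lyz2 at 0.54. The neutrophil markers, which moved by a similar amount, stand beside Lyz2 as beside Ly6c2, and their part was not tested.

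Ly86 encodes MD-1, a secreted partner that places the receptor RP105, the product of Cd180, on the cell surface. Ly86 (chromosome 13, 37345208 to 37419036) had 51.8, 46.1 and 52.3 CPM in KO replicates 2, 3 and 4, against 45.2, 40.2 and 39.2 CPM in WT replicates 1, 3 and 4. The groups were separated by less than 1 CPM. The log2 fold change of 0.27 ± 0.09 (SE) did not pass (edgeR adjusted p = 0.126). Cd180 lay the other way, at 29.8, 25.6 and 22.6 CPM in KO and 37.0, 38.1 and 31.2 CPM in WT, with a log2 fold change of -0.45 ± 0.12 (SE, adjusted p = 0.082). Tlr4 and Ly96, the related receptor and partner for endotoxin, had log2 fold changes of 0.32 and 0.38 and did not pass either.

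Spn, the gene of the heavily glycosylated surface protein CD43, varied least. It had 330, 342 and 330 CPM in KO replicates 2, 3 and 4, against 299, 305 and 311 CPM in WT replicates 1, 3 and 4. The groups were apart, yet by little: the log2 fold change was 0.13 ± 0.09 (SE, edgeR adjusted p = 0.375), with a 95% interval from 0.959 to 1.25 times the WT level. Spn is the gene with the 8mer match shown above, and Ms4a6c the one with the 7mer.

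F13a1, Ms4a6c and Fn1 overlapped between the groups. F13a1 encodes the catalytic subunit of coagulation factor XIII, which cross-links fibrin, and had 508, 675 and 666 CPM in KO replicates 2, 3 and 4, against 647, 608 and 489 CPM in WT replicates 1, 3 and 4 (log2 fold change 0.08 ± 0.15, SE, edgeR adjusted p = 0.762). Ms4a6c, a membrane protein of the CD20 family, had 85.5, 113 and 120 CPM in KO, against 105, 106 and 76.4 CPM in WT (log2 fold change 0.15 ± 0.16, SE, edgeR adjusted p = 0.615). Leaving out WT replicate 4 gave 0.0077 for Ms4a6c, and leaving out KO replicate 2 gave 0.29. In both genes, as in Ccr2, the lowest library of its group was KO replicate 2 in KO and WT replicate 4 in WT. The annotated span of Ms4a6c overlaps that of BE692007 on the opposite strand, which had 3462 counts summed over the KO libraries and 2801 over the WT libraries. Whether their exons share bases was not computed, and the strand setting is not stated. Whether reads of BE692007 were counted for Ms4a6c is therefore not known.

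Fn1, the gene of the matrix protein fibronectin, had 690, 1124 and 646 CPM in KO replicates 2, 3 and 4, against 933, 1320 and 1131 CPM in WT replicates 1, 3 and 4. Only KO replicate 3 reached into the WT range. In edgeR its log2 fold change of -0.46 ± 0.22 (SE, 95% interval -0.98 to 0.06) did not pass (adjusted p = 0.255), and it was -0.75 without KO replicate 3, where it was called lower (adjusted p = 0.0414). Fn1 is also made by stromal cells, macrophages and hepatocytes. Of 8 stroma and osteoblast markers 0 passed in edgeR and 0 in limma, 1 was higher in DESeq2, and Lepr alone was higher at an unadjusted edgeR p under 0.05 (Cxcl12 had a log2 fold change of 0.68). The sums lay between 330 and 417 CPM in KO and between 166 and 339 CPM in WT. Of 10 tissue macrophage markers Siglec1, a sialic acid receptor, fell, with a log2 fold change of -1.05 (edgeR adjusted p = 0.0103), a call kept in each of the 6 fits without 1 library. DESeq2 and limma each called 3 macrophage markers lower, as did edgeR without KO replicate 2, and Cd163 and Mrc1 had log2 fold changes of -0.64 and -0.54 (edgeR adjusted p = 0.0564 and 0.0734). Of the 10 macrophage markers, however, 5 had positive and 5 negative log2 fold changes, with a median of -0.025. At an unadjusted edgeR p under 0.05, 1 was higher and 3 lower. The macrophage markers summed to between 303 and 382 CPM in KO and between 308 and 338 CPM in WT. The 4 hepatocyte markers were too low to test, with sums of at most 0.160 CPM in KO and 0.173 CPM in WT, and Serpina1a at 0 throughout. The part of the stroma and macrophages in the Fn1 values was not tested.

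**Figure D4:**
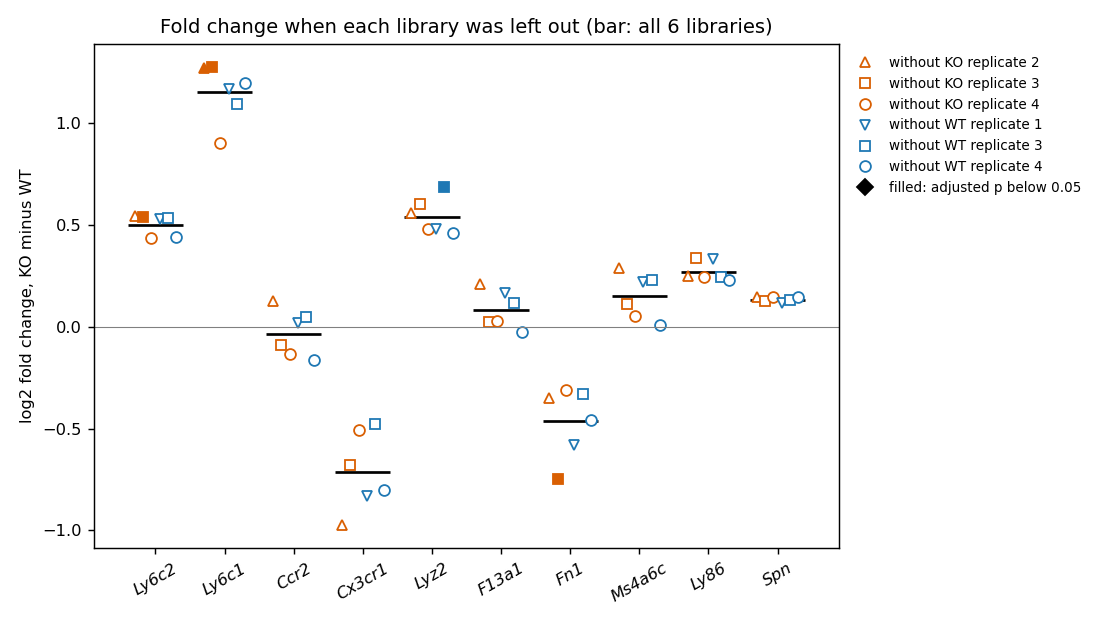
Log2 fold change (KO minus WT) of each gene with each library left out in turn (points, coloured by the group of the library left out, filled where the adjusted p was below 0.05) and with all 6 libraries (bar). Ly6c2, Ly6c1, Lyz2, Ms4a6c, Ly86 and Spn stay above 0 and Cx3cr1 and Fn1 below 0 in every fit, whereas Ccr2 and F13a1 cross 0.

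The ligands and partners of these proteins were listed for comparison, 11 genes of which 8 were abundant enough to test. Of these, 1 fell and 0 rose. Ccl2, the ligand of CCR2, had 1.60, 1.70 and 1.36 CPM in KO replicates 2, 3 and 4, against 11.1, 10.6 and 8.82 CPM in WT replicates 1, 3 and 4, a log2 fold change of -2.71 ± 0.18 (SE, edgeR adjusted p = 0.000267). That call was kept in each of the 6 fits without 1 library. Ccl7, a further CCR2 ligand, had 0, 1 and 4 counts in KO and 1, 8 and 8 in WT and was not tested. Cx3cl1, the CX3CR1 ligand, had 1.13, 0.810 and 1.09 CPM in KO and 0.751, 0.687 and 0.787 CPM in WT, and did not pass (adjusted p = 0.338). Thus the CCR2 ligand Ccl2 fell while the value of Ccr2 lay close to the WT level.

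Other genes of the same cells were counted as lists, which were not chosen for how they moved here but with earlier results of these data known. Of 14 other classical monocyte genes 2 rose, 0 fell and 12 did not pass, with a median log2 fold change of 0.34, against -0.01 over all genes tested, and 12 of the 14 had positive values. That median was 0.15 without KO replicate 4 and 0.20 without WT replicate 4, while leaving out KO replicate 2 gave 0.51. The genes that rose were S100a4, a calcium-binding protein gene (58.3 ± 5.60 CPM in KO and 42.2 ± 2.14 CPM in WT, SD, n = 3 each), and Mgst1, a glutathione transferase gene (217 ± 20.3 CPM in KO and 147 ± 18.2 CPM in WT). Cd14, the endotoxin co-receptor gene, lay the other way with a log2 fold change of -0.65 (adjusted p = 0.18). The number that rose was 0 without KO replicate 4, 0 without WT replicate 1 and 0 without WT replicate 4, and 5 in DESeq2. The neutrophil markers had a median log2 fold change of 0.52, and the part of neutrophils in the values of this list was not tested.

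Of 12 other patrolling monocyte genes 1 fell, 0 rose and 11 did not pass, with a median log2 fold change of 0.07, which lay between 0.04 (without WT replicate 4) and 0.20 (without WT replicate 3) when 1 library was left out. The gene that fell was Nr4a1, the transcription factor that patrolling monocytes require, at 35.3 ± 9.37 CPM in KO and 87.3 ± 13.2 CPM in WT (SD, n = 3 each, edgeR adjusted p = 0.0268). Its call was lost without KO replicate 4 or any of the WT libraries, with a log2 fold change of -1.17 or below in all 6 fits. Of the 12 patrolling genes 9 had positive values, and at an unadjusted edgeR p under 0.05 3 were higher and 1 lower. DESeq2 and limma each called 1 of the 12 higher and 1 lower. Of 6 monocyte differentiation genes Klf4 and Zeb2, transcription factors, fell, with log2 fold changes of -0.61 and -0.57 (edgeR adjusted p = 0.019 and 0.0318), 0 rose and 4 did not pass. Both calls were lost without KO replicate 4, WT replicate 1 or WT replicate 4, and that of Zeb2 also without WT replicate 3. Csf1r, the growth factor receptor of all monocytes, had a log2 fold change of -0.03 ± 0.10 (SE, adjusted p = 0.871). Spi1, of the same list, lay the other way from Klf4 and Zeb2, at 0.45 ± 0.10 (SE, edgeR adjusted p = 0.0564). DESeq2 and limma each called 1 of the 6 higher and 2 lower. Nr4a1 and Klf4 are also immediate early genes, and of 18 such genes 14 fell and 0 rose, Atf3, Jun, Plk2 and Fosb with the smallest p and log2 fold changes of -2.21, -1.94, -1.91 and -3.12. Their sums lay between 2908 and 3830 CPM in KO and between 6513 and 8195 CPM in WT. The number that fell was 7 without KO replicate 4, 8 without WT replicate 1 and 8 without WT replicate 4. The part of that response in the Nr4a1 and Klf4 values was not tested.

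**Figure D5:**
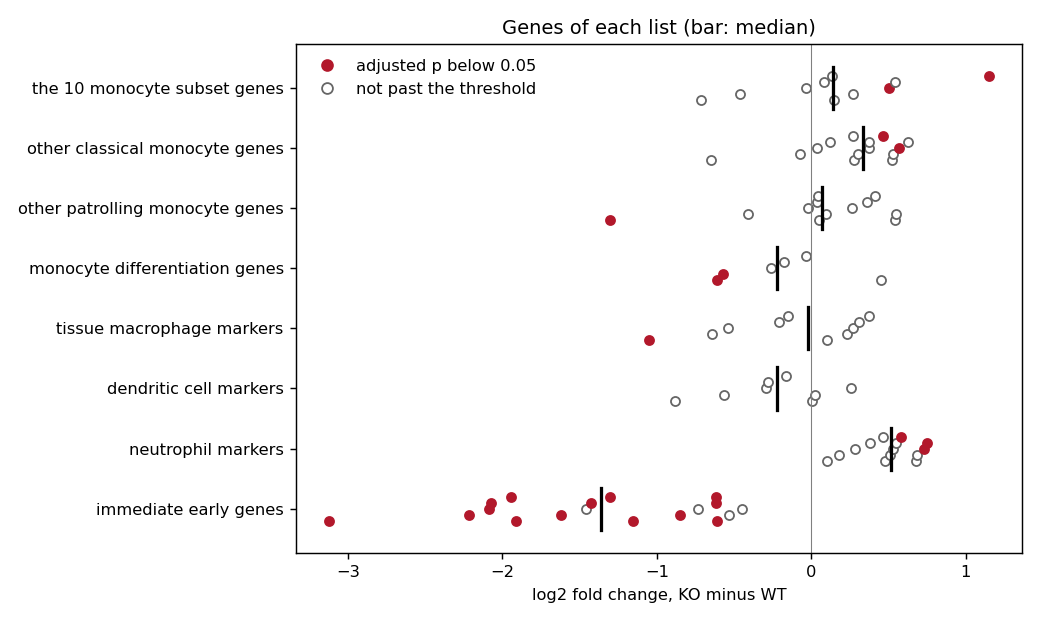
Log2 fold change (KO minus WT) of each tested gene of 8 lists (points, filled red where the adjusted p was below 0.05) with the median of each list as a bar. The other classical monocyte genes and the neutrophil markers lie mostly above 0, and the immediate early genes lie below 0. The patrolling monocyte genes lie on both sides of 0, between -1.31 (Nr4a1) and 0.55, with 9 of 12 above it.

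Close paralogs of the members had 0 calls among 12 tested (of 14) in edgeR, with a median log2 fold change of 0.39. At an unadjusted p under 0.05, 5 were higher, and 1 was in DESeq2 and in limma. Ly6g, the neutrophil gene of the Ly6 family, had 263 ± 20.1 CPM in KO and 183 ± 26.1 CPM in WT (SD, n = 3 each), with a log2 fold change of 0.52 (adjusted p = 0.0525). Ly6a and Ly6i had log2 fold changes of 0.47 and 0.66, and Ms4a6b and Ms4a6d of 0.33 and 0.83, none of which passed. With Ms4a6b, Ms4a6c and Ms4a6d summed, the log2 fold change was 0.30 (adjusted p = 0.3). Of 8 B cell markers 0 passed in edgeR, 1 was lower in DESeq2 and 0 in limma, and Ms4a1 was lower at an unadjusted edgeR p under 0.05 (Pax5 had a log2 fold change of -1.25). In KO replicate 2 the B cell markers summed to 338 CPM, against 105 and 120 CPM in KO replicates 3 and 4. Without KO replicate 2, 7 of the 8 were called lower, against 366 of the 17379 genes tested in that fit. Their median log2 fold change was then -1.61, against -0.71 with all libraries. Leaving out any other library gave 0 or 1 of the 8 called lower. Of 8 erythroid markers 0 passed in edgeR, 1 was lower in DESeq2 and in limma, and Slc4a1 and Tfrc were lower at an unadjusted edgeR p under 0.05. Of the 7 adipocyte markers 4 were abundant enough to test, 0 passed in edgeR, DESeq2 or limma, and Adipoq was higher at an unadjusted edgeR p under 0.05 (Fabp4 had a log2 fold change of 0.54).

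The likeness of other genes to Ly6c2 was measured as the Pearson correlation of log2 CPM after the mean of each group was subtracted, over 6 libraries and 9568 genes. The 5 most alike were Pcid2, Usp18, Timm8b, Ifitm3 and 3830406C13Rik, with correlations between 0.992 and 0.996. Among the members covered, Ms4a6c (0.85), Ccr2 (0.80) and F13a1 (0.74) came first, at places 596, 885 and 1256, and Spn (-0.61) came last. These values rest on 6 libraries and are given as a description only.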

How the data were processed

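Poly(A)-selected RNA of 6 mouse bone marrow samples was analysed from 1 deposited table of raw read counts per Ensembl gene. For these deposited counts the submitters' processing notes name featureCounts (Subread 1.5.2), STAR 2.5.2b, Trimmomatic 0.36 and the build GRCm38. The sources used here do not give the annotation release, strand setting or read length. Symbols, positions, exon lengths and transcripts came from GENCODE M21 (GRCm38), which named 49056 of 49315 identifiers, and the rest held 0.0171% of counts.

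KO was tested against WT with edgeR 4.0.16 (R 4.3.3): TMM scaling, filterByExpr by group, robust quasi-likelihood test, two-sided, Benjamini-Hochberg over 16956 genes, threshold 0.05. CPM are counts over library total times TMM factor. Intervals are at 95%. The procedure was tested on simulated data. Alternatives used limma 3.58.1, DESeq2 1.42.0 and others listed at the end. Within-library ratios were compared by exact permutation. Every pair of libraries differed by more than sampling noise (chi-square per gene of at least 30.1). Total counts set a floor of 3 counts at between 0.0743 and 0.0886 CPM, covering counting error only.

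The members and lists were chosen with earlier results of these data known. All members are named, then list genes past the threshold (at most 4 a list, smallest p first, or where none passed 2 with the smallest p), ligands and paralogs of the members, and the 5 genes most like Ly6c2. Cd14, Csf1r, Spi1, Tlr4, Ly96, Cd163, Mrc1 and Jchain were named after their values were seen. A sequence comparison for Ccr2 is not reported here.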

Additional observations from a re-analysis of the deposited data

How the results depend on the processing

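The calls of Ly6c2 and Ly6c1 lay close to the threshold. Ly6c2 had log2 fold changes of 0.43 with library totals only, 0.47 with an Xist covariate and 0.49 without the exon length and GC trend, and Ly6c1 of 1.07 with that covariate and 1.11 without that trend, all with the call lost, and both kept their direction under every alternative run. Leaving out 1 library gave between 0.44 and 0.54 for Ly6c2, 0.90 and 1.28 for Ly6c1, -0.16 and 0.13 for Ccr2, -0.026 and 0.21 for F13a1, -0.75 and -0.31 for Fn1, 0.46 and 0.69 for Lyz2, and -0.15 and 0.035 for the log2 ratio of Ly6c2 to Lyz2. Ccr2 changed sign with limma (0.062) and after removal of the trend (0.071), and F13a1 with the Xist covariate (-0.029). Cx3cr1 was called lower by DESeq2 (-0.70), and Lyz2 higher with no filter on low counts (0.53), by DESeq2 (0.55) and by limma (0.60).

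The number of the 10 genes called higher was 2, against 1 with library totals only and 0 with the Xist covariate or with the trend removed, and between 0 and 2 without 1 library. The number called lower was 0, against 1 in DESeq2, and between 0 and 1 without 1 library. Over all genes 417 were called (159 higher and 258 lower, against 87 and 403 with library totals only, 158 and 161 without the trend, and 834 and 743 in DESeq2). The total was 1492 with no filter, 1577 in DESeq2, 1057 in limma, 209 with the Xist covariate, and between 32 and 920 without 1 library. The cause of these shifts was not tested. Fitting the replicate number as a block gave Ly6c2 at 0.57 (call lost), Ccr2 at 0.19, Cx3cr1 at -1.09 (called lower), with 1 of the 10 called higher and 1 lower, and all 8 B cell markers called lower. In that fit 212 of 16956 genes were called higher and 359 lower. Library totals moved the median over all genes to -0.08. KO and WT share only the numbers 3 and 4, whose libraries' deviations correlated at 0.20 and -0.13, so the numbers were not taken to pair samples. Ly6c1 rested on the fewest counts, 82, 87 and 144 in KO and 46, 49 and 58 in WT, so counting error bears on its value.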
